A study of Homo sapiens with 6 samples.

Results

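The regions described here were gene-end sites that carried an ATAC-seq peak in clones 1 and 2 of U937 cells depleted of neutrophil serine proteases, and no peak in clone 3. They were chosen from the peak lists themselves. The intervals of 6 lists were merged on chromosomes 1-22 and X, and a merged region was kept when clones 1 and 2 both had an interval in it, clone 3 had none, and one of the ends of a RefSeq gene, coding for protein or for a long non-coding RNA (lncRNA), was at most 1000 bp away. Of 32817 merged regions, 2936 met this rule (8.95%). Since presence in clones 1 and 2 and absence from clone 3 made the selection, peak strengths are given as a description, with no test.

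U937 is an established human monocytic line. In 3 independent clones, called ΔNSPs, the genes CTSG, ELANE and PRTN3, which encode cathepsin G, neutrophil elastase and proteinase 3, had been depleted together, and 3 control lines carried control plasmids. All 6 lines were selected with geneticin at 500 ug/ml, and before ATAC-seq all were treated with DNase at 200 units/ml for 30 min at 37 °C, washed and frozen in medium with 5% DMSO. Each line gave 1 library, so no value below has a replicate of its own clone. The lists held 14262, 24977 and 2188 peaks on these chromosomes in clones 1, 2 and 3, and 11, 4 and 2 in control lines 1, 2 and 3. None of the 2936 regions overlapped a control peak. The control lists covered only 11, 4 and 2 of all 32817 merged regions, so this does not show that the sites were closed in the controls. The 3 depleted genes had no region of this kind at either end, and the only gene-end peak at any of them was that of clone 2 at CTSG. Since peaks are not a measure of the edit, this checks no label.

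In ATAC-seq a transposase cuts and tags DNA that is not covered by nucleosomes. The start of an active gene is usually such an open stretch, because transcription factors, general factors and RNA polymerase hold it free. Many promoters of widely expressed genes lie in CpG islands, stretches rich in the dinucleotide CG that bind factors such as SP1, NRF1, NF-Y and the ETS family. Where neighbouring genes start back to back, a single open stretch can serve both starts.

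Promoter sequences of 5 genes are shown. The regions of PPP2R1A, TMEM255B and SLTM were among the highest of the set by the authors' confidence in clones 1 and 2. Those of PLCG1 and TRAP1 were among the highest by fold enrichment, from fewer reads. Merged over the clones, each of the 5 regions covered the whole RefSeq promoter window. PPP2R1A encodes the scaffold subunit of protein phosphatase 2A, SLTM an RNA-binding regulator of transcription, TMEM255B a transmembrane protein, PLCG1 the signalling enzyme phospholipase C gamma 1, and TRAP1 a mitochondrial chaperone of the HSP90 family. Each line gives the 250 bases before the gene's start, 5′ to 3′ along the gene, from RefSeq on build GRCh38.p14. Capitals mark the motifs searched, on either strand.
PPP2R1A: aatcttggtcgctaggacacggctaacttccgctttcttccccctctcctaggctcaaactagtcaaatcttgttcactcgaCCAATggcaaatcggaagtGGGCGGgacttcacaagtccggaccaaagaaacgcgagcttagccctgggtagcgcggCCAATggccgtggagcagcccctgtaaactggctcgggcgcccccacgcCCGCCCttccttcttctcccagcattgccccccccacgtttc
TMEM255B: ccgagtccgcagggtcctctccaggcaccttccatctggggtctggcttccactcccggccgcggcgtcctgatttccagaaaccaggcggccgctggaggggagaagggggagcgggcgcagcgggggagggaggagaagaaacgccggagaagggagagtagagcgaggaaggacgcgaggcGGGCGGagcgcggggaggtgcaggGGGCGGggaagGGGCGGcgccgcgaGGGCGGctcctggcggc
SLTM: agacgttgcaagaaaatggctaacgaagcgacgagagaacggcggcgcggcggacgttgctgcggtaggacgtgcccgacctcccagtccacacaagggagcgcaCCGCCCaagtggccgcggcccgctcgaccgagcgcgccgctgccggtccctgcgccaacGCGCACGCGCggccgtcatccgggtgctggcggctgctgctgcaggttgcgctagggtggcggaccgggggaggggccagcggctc
PLCG1: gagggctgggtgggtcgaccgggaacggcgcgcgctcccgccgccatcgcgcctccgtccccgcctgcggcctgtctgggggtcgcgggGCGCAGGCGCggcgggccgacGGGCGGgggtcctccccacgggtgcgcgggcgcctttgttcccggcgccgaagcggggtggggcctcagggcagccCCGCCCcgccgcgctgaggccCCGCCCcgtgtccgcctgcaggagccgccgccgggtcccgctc
TRAP1: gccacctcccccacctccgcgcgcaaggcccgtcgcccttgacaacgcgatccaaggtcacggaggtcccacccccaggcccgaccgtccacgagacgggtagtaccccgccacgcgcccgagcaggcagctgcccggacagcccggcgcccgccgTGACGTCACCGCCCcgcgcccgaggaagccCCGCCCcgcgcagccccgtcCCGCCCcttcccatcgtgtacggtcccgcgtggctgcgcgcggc

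The PPP2R1A window (chr19:52189802-52190051, plus strand) held 2 CCAAT boxes and 2 GC boxes, with a GC content of 59.2%. Both PPP2R1A summits lay upstream of the bases shown, at -254 bp from the start in clone 1 and -292 bp in clone 2. The strongest clone 2 interval (52189642 to 52189953) covered only the first part of these bases. The TMEM255B window (chr13:113758976-113759225, plus strand) held 4 GC boxes. The SLTM window (chr15:58933680-58933929, minus strand) held 1 GC box and a match to the NRF1 motif that began at base 165, counted from 1 at the 5′ end of the line. The summits at SLTM fell on base 214 in clone 1 and base 74 in clone 2, on either side of that match. The PLCG1 window (chr20:41137293-41137542, plus strand) was 82.8% GC, with 3 GC boxes and 1 NRF1 match. At PLCG1 the clone 1 interval ran over the promoter (41136879 to 41137708), while the strongest clone 2 interval ended upstream of it (41136831 to 41136919). At TMEM255B the strongest clone 2 interval (113758670 to 113758921) also ended upstream of the bases shown. The TRAP1 window (chr16:3717525-3717774, minus strand) held a cyclic AMP response element, followed directly by the first of 3 GC boxes. The clone 2 summit lay at base 237, and that of clone 1 lay 7 bp past the start, outside the bases shown. These matches are descriptions of letters, not sites of binding.

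Most of the regions lay at gene starts. Of 2936 regions, 2659 (90.6%) were at the end of a protein-coding gene and 277 (9.43%) at lncRNA gene ends only. The strand was known for at least 1 gene at 2586 regions, and 2452 of these (94.8%) touched a 5′ end. The other 134 (5.18%) touched a 3′ end and no known 5′ end. They include regions that also touched an end of unknown strand, such as that of CHUK and ERLIN1. The corresponding share at 5′ ends was 95.5% for the 851 gene-end regions that all 3 clones had, 94.6% for the 4208 of clone 1 alone and 79.9% for the 2914 of clone 2 alone. These shares were not tested, and nearby regions and shared genes make the regions dependent on each other.

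The summits of both clones sat just upstream of the annotated start. For the 2452 regions at a 5′ end, the median summit position relative to the start, negative values being upstream, was -50 bp in clone 1 (middle 50% of regions from -131 to 47 bp) and -61 bp in clone 2 (-135 to 9 bp). In clone 1, 47.4% of the summits lay within 100 bp of the start, and in clone 2 49.0% did. By comparison, the median summit of the regions of clone 1 alone lay at 20.5 bp, and that of the regions of clone 2 alone at -26 bp. The regions of all 3 clones had medians of -79, -71 and -74 bp in clones 1, 2 and 3, so an upstream summit was not particular to the regions that clone 3 lacked. Positions were not used by the selection beyond the window of 1000 bp. The gene end is the outermost annotated one, and for 13257 of 15812 protein-coding genes with a known strand it was also the start of the RefSeq promoter window.

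**Figure D1:**
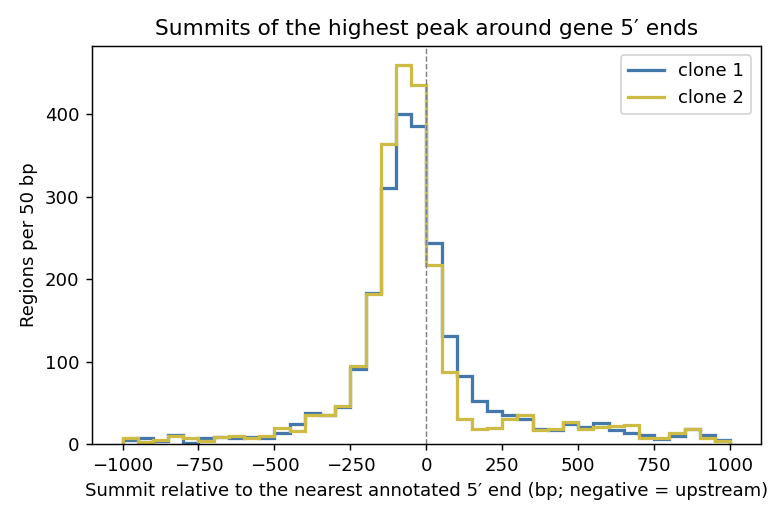
Position of the highest summit of each region relative to the nearest annotated 5′ end, in bp along the gene (x axis, negative values upstream), as regions per bin of 50 bp (y axis), for clone 1 (blue) and clone 2 (yellow). Both lines peak just upstream of 0, with medians of -50 and -61 bp; 38 regions in clone 1 and 46 in clone 2 lay beyond the 1000 bp shown.

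The summits of the 2 clones lay close to each other. The rule favoured this, since both clones needed an interval in the same merged region, with a median width of 339 bp. The distances and overlaps are thus a description and do not measure agreement between the clones. The median distance between the clone 1 and clone 2 summits of a region was 51 bp (middle 50% from 22 to 112 bp, highest 922 bp), 1462 regions (49.8%) had them within 50 bp, and 22 had them more than 500 bp apart. The clone 1 interval was the wider one at 2626 regions (89.4%), with a median width of 315 bp against 133 bp in clone 2, and the strongest clone 2 peak lay wholly inside the clone 1 peak at 1602 regions (54.6%). Widths and summit numbers are those of each clone's strongest interval in a region. That interval had 2 or more summits at 957 regions in clone 1 (32.6%), up to 7, and at 583 in clone 2 (19.9%). Clone 1 had 2 or more separate intervals at 2 regions and clone 2 at 154, and summits of the weaker intervals were not counted. Widths and summit numbers also depend on how each list was called.

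Back-to-back starts were common. A region lay at the ends of 2 or more genes in 1136 cases (38.7%), and at 551 of the 2452 regions at a 5′ end (22.5%) the region touched starts of genes that run away from each other. Among regions of all 3 clones 28.2% of those at 5′ ends did so, among those of clone 1 alone 18.4%, and among those of clone 2 alone 14.7%. A peak at such a pair cannot be assigned to 1 of the genes. FAU, which encodes a ribosomal protein fused to a ubiquitin-like domain, and MRPL49, a mitochondrial ribosomal protein, shared a region on chromosome 11 at 65122150 to 65122413, with a fold enrichment of 3.47 in clone 1 and 4.41 in clone 2. ATM, the kinase that signals DNA breaks, shared one with NPAT, an activator of histone genes, on chromosome 11 at 108222612 to 108223133, with folds of 3.66 and 3.09.

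The fold enrichment is the authors' value for a summit's read pile-up against its local background, and the deposited folds fit a ratio with 1 read added to both, so folds of regions with few reads are lowered most. Over the 2936 regions the median was 3.28 in clone 1 (lowest 1.75, highest 10.4) and 3.61 in clone 2 (lowest 1.93, highest 11.9). The median −log10 q, the authors' measure of confidence, was 5.72 in clone 1 (2.00 to 37.7) and 6.25 in clone 2 (2.01 to 70.8). The fold and the p together imply a median pile-up of 34 reads over a background of 9.36 in clone 1 and of 31 reads over 7.89 in clone 2. At the 851 gene-end regions of all 3 clones, the medians of −log10 q were 9.06, 9.28 and 3.94 in clones 1, 2 and 3, and the implied pile-ups were 44, 40 and 37 reads over backgrounds of 12, 9.27 and 12.2. By these medians, the regions that clone 3 lacked stood lower in the lists of clones 1 and 2 than the regions it had. Across the 2936 regions the rank correlation of the folds in the 2 clones was 0.301 (Spearman), and across the 851 regions of all 3 clones it was 0.0948. All points of a clone come from 1 library.

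**Figure D2:**
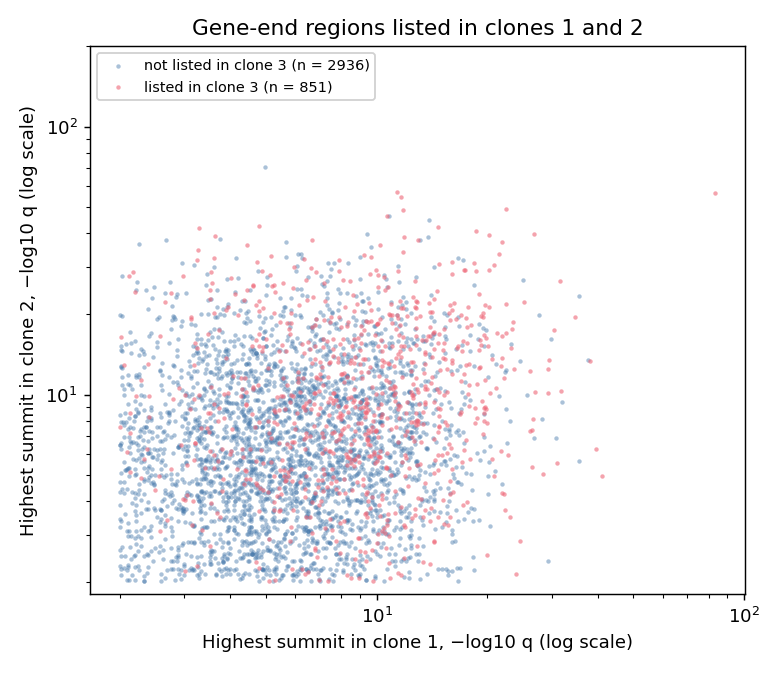
Highest −log10 q of each gene-end region in clone 1 (x axis) and clone 2 (y axis), both on log scales, for the 2936 regions that clone 3 lacked (blue) and the 851 that it had (red). The blue points fill the lower left, with medians of 5.72 and 6.25, and the red points lie higher, with medians of 9.06 and 9.28, but the 2 sets overlap over most of the range.

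Clone 3 lacked most of the gene-end regions that clones 1 and 2 shared, and a larger share of those low in the lists of clones 1 and 2. Of the 3787 gene-end regions of clones 1 and 2, 2936 (77.5%) were absent from clone 3, against 2212 of 2614 (84.6%) of the regions of clones 1 and 2 away from gene ends. When the 3787 were ordered by the sum of their ranks in clones 1 and 2 and divided into 10 groups of like size, clone 3 lacked 45.9% of the strongest group (174 of 379) and 94.4% of the weakest (357 of 378), with 1 dip on the way, from 85.0% in group 6 to 82.3% in group 7. The lists differed in length, and when those of clones 1 and 2 were reduced to their 2188 strongest peaks, the length of the clone 3 list, 316 gene-end regions were shared by clones 1 and 2 and clone 3 lacked 140 of them (44.3%). A threshold applied to all 3 clones moved the share the other way, to 88.5% (1483 of 1675) at a −log10 q of 5 or more and 93.0% (478 of 514) at a fold of 4 or more. A site without a listed peak in clone 3 has no value there, so closed chromatin and signal below the threshold cannot be told apart.

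**Figure D3:**
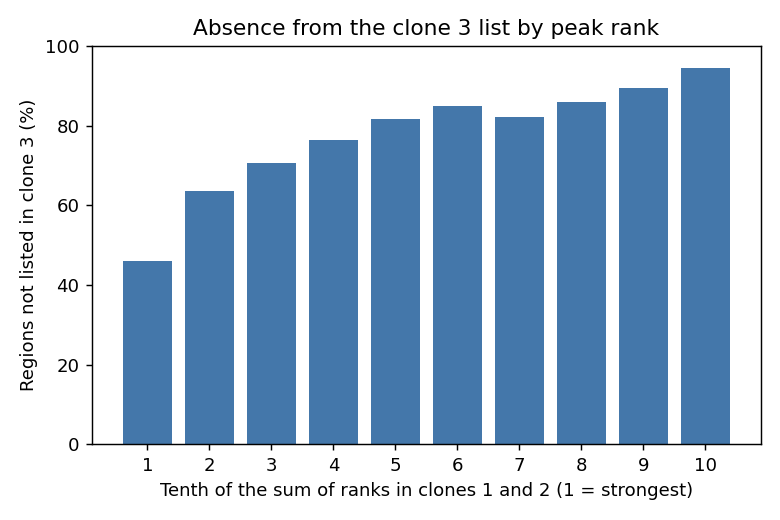
Share of gene-end regions of clones 1 and 2 that clone 3 lacked (y axis, %), by 10 groups of like size ordered by the sum of their −log10 q ranks in clones 1 and 2 (x axis, 1 the strongest). The share is 45.9% in the first group and 94.4% in the last.

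The regions named next had the smallest sums of ranks in clones 1 and 2. At PPP2R1A (chromosome 19, 52189600 to 52190387, over the 5′ end of the gene) the fold was 3.25 in clone 1 and 3.73 in clone 2, with −log10 q values of 25 and 26.8 and implied pile-ups of 133 and 116 reads. At CDC73, which encodes a subunit of the PAF1 complex that travels with RNA polymerase II (chromosome 1, 193121765 to 193122404), the folds were 3.71 and 5.12. At SMARCC1, a core subunit of SWI/SNF chromatin remodellers (chromosome 3, 47781819 to 47782346), they were 3.93 and 7.23, with −log10 q values of 16.7 and 32.3. Clone 3 had its nearest peak 747769 bp from the PPP2R1A region, 1480644 bp from that of CDC73 and 306743 bp from that of SMARCC1.

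Regions with deep pile-ups but low folds stood beside regions with few reads and high folds. AP2A1, a subunit of the clathrin adaptor AP-2 (chromosome 19, 49766408 to 49766921), had folds of 2.52 and 3.21 in clones 1 and 2, from 153 and 137 reads over backgrounds of 60.1 and 42.0. PANK2, which makes coenzyme A precursors (chromosome 20, 3888983 to 3889409, shared with PANK2-AS1), had folds of 2.50 and 4.19 from 119 and 143 reads. FSIP1, a sperm tail protein gene (chromosome 15, 39782500 to 39782920, shared with LOC105370941), had 5.67 in clone 1 and 11.9 in clone 2, from 37 and 65 reads over backgrounds of 5.70 and 4.54. A high rank by −log10 q thus came either with many reads at a low ratio or with fewer reads at a high ratio.

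SLTM (chromosome 15, 58933538 to 58934055) had folds of 5.83 in clone 1 and 5.06 in clone 2. TMEM255B (chromosome 13, 113758670 to 113759405) had folds of 5.23 and 9.59, and RAB10, a GTPase of vesicle transport (chromosome 2, 26033861 to 26034140, shared with LOC124907743), 2.90 and 7.32. ADISSP, the gene of a secreted protein of fat tissue (chromosome 20, 3767719 to 3768161), had 3.98 and 4.0, and INTS3, a subunit of the Integrator complex (chromosome 1, 153727726 to 153727992), 2.77 and 4.33. HSPA1B, an inducible HSP70 chaperone gene (chromosome 6, 31827293 to 31827681), had 3.45 and 5.58. HSPA1B has a near-identical neighbour, HSPA1A, and how reads that fit both were treated is not given in the sources used here.

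Ordered by the lower fold of the 2 clones, other genes came first. The region at LOC124904903, shared with PLCG1 and PLCG1-AS1 (chromosome 20, 41136831 to 41137708), had folds of 6.95 in clone 1 and 6.98 in clone 2, from 23 and 17 reads. TRAP1 (chromosome 16, 3717308 to 3717825) had 6.88 and 7.57. GPS2, a subunit of a nuclear receptor corepressor complex (chromosome 17, 7314914 to 7315468), had 8.15 and 6.66, and its window also held the 3′ end of NEURL4. NPAS4, an activity-regulated transcription factor of neurons (chromosome 11, 66408513 to 66409072), had 6.58 and 8.08, and RXFP4, a relaxin family receptor (chromosome 1, 155941272 to 155941628), 6.04 and 6.17. At GPS2 and NPAS4 the strongest clone 2 interval lay at the downstream side of the region by coordinate, mostly inside the wider clone 1 interval. It ran from 7315294 to 7315468 at GPS2 and from 66408957 to 66409072 at NPAS4.

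At the lower limit of the lists, RALGPS1 (chromosome 9, 126914610 to 126914918) had a −log10 q of 2.00 in clone 1 and 6.50 in clone 2, and MET, the hepatocyte growth factor receptor (chromosome 7, 116672085 to 116672292), the same 2.00 and 6.50. The region at HMBOX1 and INTS9 on chromosome 8 had 2.00 and 8.40. At the limit of the window, regions at SH3PXD2A-AS1, TUT4, TRIB3 and TM6SF1 lay 1000, 994, 993 and 989 bp from the gene end, and the nearest regions left out lay 1004 bp from CLSTN1 and 1005 bp from MARCKSL1, LOC124901258 and LOC105375021. The folds of TM6SF1 were 2.96 and 5.92 and those of CLSTN1 3.21 and 4.52, so the 2 sides of this limit did not stand apart by fold.

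The widest regions came from clone 1. DIPK2A (chromosome 3, 143971441 to 143973127, 1687 bp) had 4 summits in clone 1, with a fold of 5.67 at the highest. The fold of its strongest clone 2 peak was 3.55. RAC1, a GTPase of the actin cytoskeleton and of the phagocyte oxidase (chromosome 7, 6373290 to 6374973, 1684 bp), had folds of 5.12 and 3.18. NFE2L2, the transcription factor NRF2 of the oxidative stress response (chromosome 2, 177263566 to 177265115, 1550 bp), had 3.18 and 2.81. The strongest clone 2 interval covered only a short stretch of each, for example 6374225 to 6374287 at RAC1.

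Among the 277 regions at lncRNA ends alone, the strongest were at PCNA-AS1, CERNA1 and ENTPD3-AS1. PCNA-AS1, an antisense transcript of the PCNA gene (chromosome 20, 5119360 to 5120239), had folds of 2.53 and 2.99 in clones 1 and 2, from 138 and 118 reads. CERNA1 (chromosome 15, 52179375 to 52180204) had 5.87 and 7.33, and ENTPD3-AS1 (chromosome 3, 40453143 to 40453394) 2.95 and 3.50. PCNA itself, the sliding clamp of replication, had a separate region shared with CDS2 (5126515 to 5127203).

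Chromosomes differed in how many shared regions clone 3 lacked. Clone 3 lacked 49.2% on chromosome 19 (178 of 362), 57.0% on chromosome 20 (81 of 142) and 55.3% on chromosome 21 (26 of 47). On the other chromosomes the share ran from 73.3% on chromosome 1 (346 of 472) to 92.9% on X (52 of 56). Chromosomes 19, 20 and 21 were picked after these values were seen. When all 3787 regions were divided by rank into 5 groups of like size, clone 3 lacked 37.8% of the strongest group on these 3 chromosomes and 59.1% elsewhere, and 54.9% and 88.2% of the middle group, so the gap was also there among regions of like rank. In the weakest group the shares were 85.9% and 92.5%. Clone 3 had a peak at an end of 19.2% of protein-coding genes on chromosome 19 and 17.3% on chromosome 20, and 0.943% on X. What set these chromosomes apart was not tested.

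**Figure D4:**
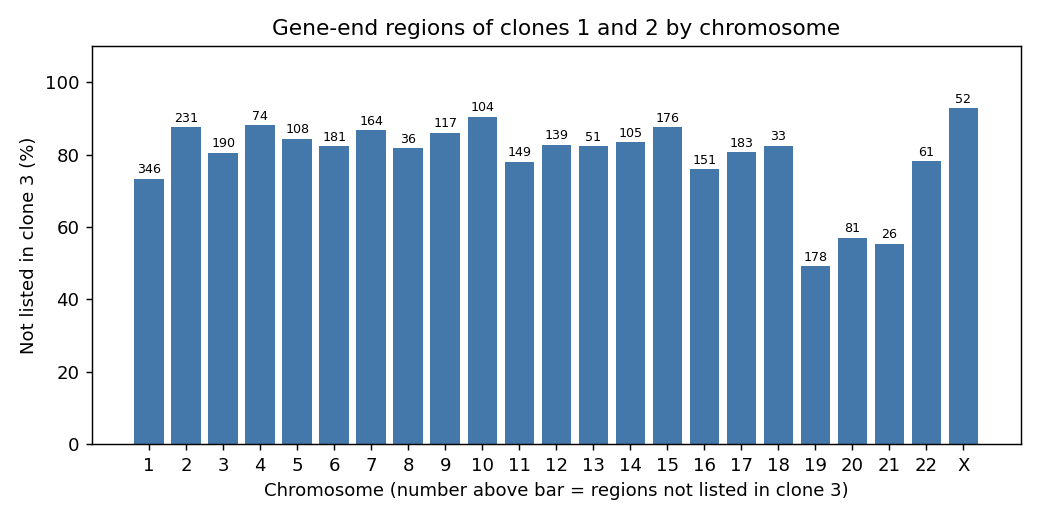
Share of gene-end regions of clones 1 and 2 that clone 3 lacked (y axis, %) on each chromosome (x axis), with the number of such regions above each bar. Chromosomes 19, 20 and 21 stand at 49.2, 57.0 and 55.3%, and all others at 73.3% or more.

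The share of genes with a region differed between chromosomes. Over all chromosomes 3126 of 19974 protein-coding genes (15.7%) and 844 of 18177 lncRNA genes (4.64%) had one, and 158 of the 3126 had more than 1. On chromosome 15 it was 28.5% of protein-coding genes (176 of 617), and clones 1 and 2 had 540 and 1794 peaks there. On chromosome 8 it was 4.20% (30 of 715), with 603 peaks in clone 1 but 204 in clone 2, while chromosome 7 had 788 and 1287. On X it was 6.60% (56 of 848), with 318 and 267 peaks. Chromosome 8 had fewer peaks in clone 2 than in clone 1, unlike chromosomes 7 and 15.

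Genes of basic cell machinery had regions of this kind at higher shares than protein-coding genes as a whole (15.7%). Most lists of such genes also stood above all protein-coding genes (5.24%) in regions of all 3 clones. That share was 17.4% for cytoplasmic ribosomal proteins, 18.2% for initiation factors, 11.4% for DNA replication and 10.4% for the proteasome. It was lower for the RNA polymerase II list (3.49%) and for homologous recombination (3.57%). For most lists, a higher share was thus not particular to the regions that clone 3 lacked. No test was made of the lists, since members were selected by the same peak calls. Among nuclear pore genes 13 of 29 (44.8%) had one, including NUP88, which shared its region with RPAIN on chromosome 17 (5419606 to 5420431) with folds of 4.06 and 4.68 in clones 1 and 2. NUP42 had folds of 2.24 and 5.01, and NUP58 2.72 and 4.53, while NUP155 and NUP205 had no gene-end peak in any clone. For nuclear pore genes, 3 of 29 (10.3%) had a region of all 3 clones, against 5.24% of all protein-coding genes.

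Genes of translation were covered by 4 lists. Translation initiation factors and related EIF genes had a region at 21 of 55 genes (38.2%). Among them was EIF1, which helps select the start codon (folds 4.61 and 7.31, with a clone 3 peak 301 bp from the region). Others were EIF5 (3.26 and 6.06, shared with EIF5-DT) and EIF4A3, an RNA helicase of the exon junction complex (3.61 and 4.95). Aminoacyl-tRNA synthetases, which load amino acids on tRNA, had 13 of 35 (37.1%), led by the mitochondrial MARS2 (3.87 and 4.67), KARS1 (3.66 and 4.73, shared with TERF2IP) and NARS1 (3.74 and 3.94). Cytoplasmic ribosomal protein genes had 28 of 86 (32.6%), with RPS27L at 4.42 and 6.41 and RPLP2 at 5.18 and 5.66 in a region shared with PIDD1. Mitochondrial ribosomal protein genes had 16 of 78 (20.5%), with MRPS18C, back to back with the helicase gene HELQ, at 4.73 and 5.95.

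Spliceosome and heterogeneous nuclear ribonucleoprotein genes had 25 of 74 (33.8%), and a further measure, a region of all 3 clones, was found at 20 of 74 (27.0%). SNRPE, a core protein of spliceosomal particles (chromosome 1, 203861321 to 203861849), had the highest −log10 q of the set in clone 1, 37.7, with 13.5 in clone 2 and folds of 5.33 and 4.66. RNA polymerase II, general factor and Mediator genes had 24 of 86 (27.9%), but a region of all 3 clones at 3 of 86 (3.49%). MED19, a Mediator subunit whose region was shared with TMX2, had folds of 3.21 and 4.25, TAF5, a TFIID subunit, 4.05 and 6.30, and POLR2I, a polymerase subunit, 2.17 and 3.44 in a region shared with TBCB.

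Genes of growth and genome copying were also above the share of all genes. Cyclins, CDKs and mitotic regulators had 17 of 45 (37.8%), with CDC25A, a phosphatase that activates CDKs, at 3.20 and 3.25. E2F3 (shared with LOC124901482) had 2.18 and 4.03 and CCNB2 2.77 and 4.50, while no clone had a gene-end peak at CCND1 or CCNA2. DNA replication genes had 14 of 44 (31.8%), with PCNA at 3.51 and 3.35, MCM3, a helicase subunit, at 3.19 and 3.15, and RPA2 at 2.88 and 4.40. Homologous recombination and Fanconi anaemia genes had 7 of 28 (25%), among them FANCE (4.43 and 4.26). Replication-dependent histone genes had 17 of 69 (24.6%) on only 13 regions, since neighbours share them, and 19 of 69 (27.5%) had a region of all 3 clones. H4C8 (shared with LOC124901287) had folds of 2.91 and 4.75, and H1-3, in a region at its 3′ end, of 4.27 and 7.93.

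Respiratory chain genes had 22 of 83 (26.5%), led by the ATP synthase genes ATP5F1B (3.13 and 3.22), ATP5IF1 (3.21 and 5.2) and ATP5MK (3.08 and 4.77, shared with PDCD11). Proteasome genes had 12 of 48 (25%), among them PSMD8 (4.59 and 4.86) and PSMB8, an immunoproteasome subunit (2.95 and 5.17). The PSMB8 region lay at the 5′ ends of PSMB8 and PSMB8-AS1 and at the 3′ end of TAP1, a peptide transporter gene. Lysosome and endosome sorting genes had 11 of 43 (25.6%), with the enzyme GUSB at 4.31 and 4.26 and the cholesterol carriers NPC2 (shared with ISCA2) and NPC1 at 2.61 and 3.41 and at 5.11 and 4.68. Zinc finger ZNF genes had 65 of 509 (12.8%), near the share of all genes, with ZNF174, back to back with ZSCAN32, at 4.91 and 4.55.

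**Figure D5:**
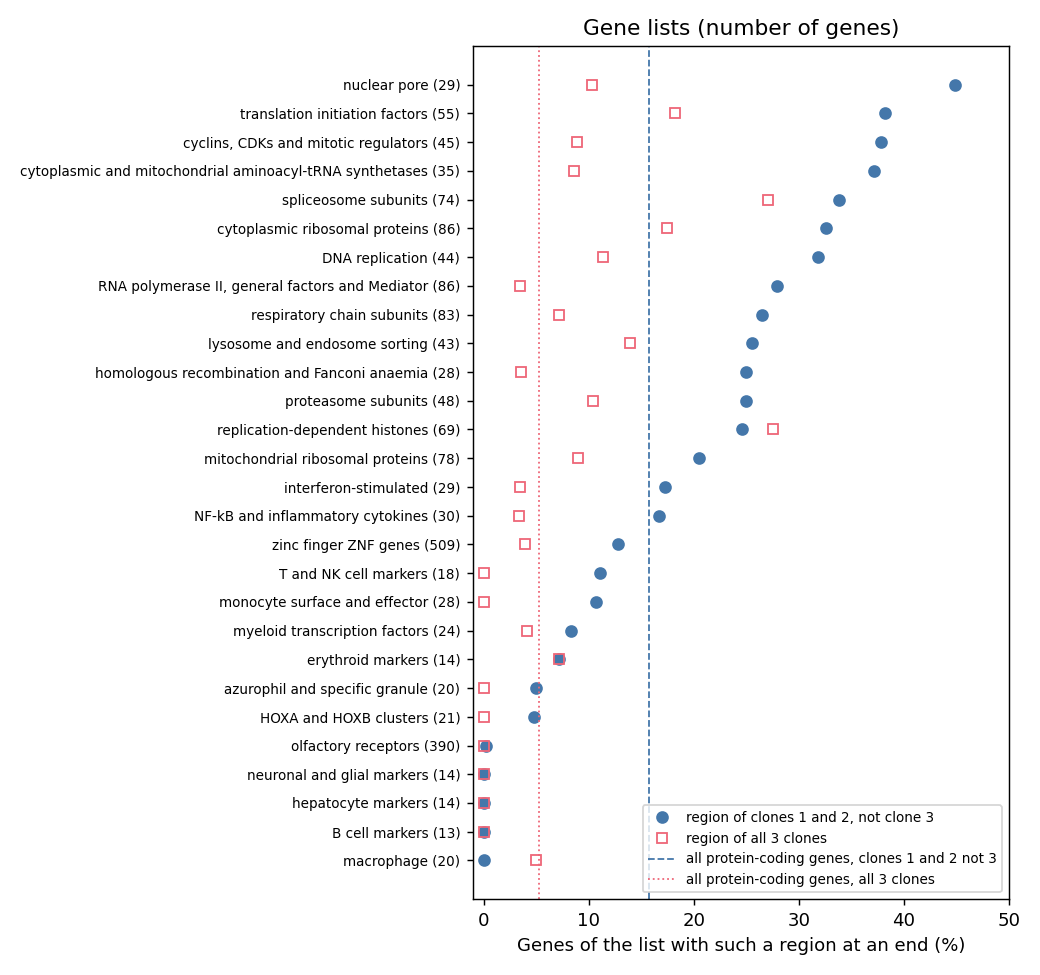
Share of the genes of each list (rows, number of genes in brackets) with a gene-end region of clones 1 and 2 but not clone 3 (filled circles) and of all 3 clones (open squares), in %. The dashed and dotted lines mark the shares of all protein-coding genes, 15.7 and 5.24%. By the filled circles, lists of nuclear pore, translation and cell cycle genes lie to the right of the dashed line. The myeloid lists, monocyte and macrophage genes included, and the lists of other lineages lie to the left.

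Myeloid lists held 0 to 3 genes with such a region, against 15.7% of all protein-coding genes, and their small size makes a share move by several points with 1 gene. Monocyte surface and effector genes had 3 of 28 (10.7%). These were the integrin ITGAM (folds 3.51 and 4.38 in clones 1 and 2) and the antibody receptor FCGR2A (3.00 and 2.89) at their 5′ ends. The third was the chemokine receptor CCR2 (3.66 and 4.13), at its 3′ end. Myeloid transcription factors had 2 of 24 (8.33%), ZEB2 at its 3′ end (2.37 and 3.15) and CEBPE at its 5′ end (4.17 and 4.15). Both regions were in the outer part of the window, at 935 and 830 bp from that end. SPI1 and CEBPD had no gene-end peak in any clone. Granule genes had 1 of 20 (5.00%), RNASE2 (4.42 and 4.82), and macrophage genes 0 of 20. HOXA and HOXB genes had 1 of 21 (4.76%), HOXA13 (3.47 and 2.41), in a region shared with HOTTIP. Interferon-stimulated genes had 5 of 29 (17.2%), with STAT2 (shared with APOF) at 2.79 and 3.85, IRF7 (shared with CDHR5) at 2.76 and 4.34 and ISG15 at 3.51 and 4.63. NF-kB and cytokine genes had 5 of 30 (16.7%), with RELB (shared with CLASRP) at 5.91 and 5.64 and RELA (shared with RELA-DT) at 3.13 and 5.49. CHUK had 2.76 and 4.86, in a region at its 3′ end that was shared with ERLIN1. For IRF7 and RELB the strand was not known, so which end the region touched is open. The shares of interferon-stimulated and NF-kB genes were near that of all genes.

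Markers of monocytes and of other cell types were counted. Over all protein-coding genes, 39.1, 29.8 and 6.64% had a gene-end peak in clones 1, 2 and 3. Gene-end peaks were present in clones 1, 2 and 3 at 6, 10 and 1 of 28 monocyte genes, at 2, 3 and 0 of 18 T and NK cell genes, at 0, 1 and 0 of 13 B cell genes, at 1, 1 and 1 of 14 erythroid genes, at 1, 1 and 0 of 14 hepatocyte genes and at 1, 2 and 0 of 14 neuronal and glial genes. Regions of clones 1 and 2 alone were at NKG7 (2.16 and 4.91, shared with LOC124904752) and CD3E (2.55 and 4.10) of the T and NK cell genes. Their −log10 q in clone 1 was 2.01 and 2.39, near the lowest of that list (2.00). The CD3E region lay 569 bp from a gene end of unknown strand. Of the erythroid genes KLF1 (4.30 and 5.88) had a region, at its 3′ end. None of the B cell, hepatocyte or neuronal and glial genes had one. The share of T and NK cell genes with such a region (2 of 18, 11.1%) was close to that of monocyte genes (10.7%). With so few genes per list, these counts cannot check the monocytic label. Of 390 olfactory receptor genes 1 had a region, OR52W1 (3.19 and 3.70), at its 3′ end.

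The promoters of these genes were rich in CpG. RefSeq promoter windows, from 250 bp before to 50 bp after the start, were compared between protein-coding genes sorted by the peaks at their 5′ ends, each gene counted once. The median ratio of observed to expected CpG was 0.868 in the 2522 promoters with a region of clones 1 and 2 only (genes that also had a region of all 3 clones counted with the latter), 0.891 in 841 with a region of all 3 clones, 0.862 in 2804 with one of clone 1 alone and 0.771 in 1071 with one of clone 2 alone. In 8426 promoters without a peak in any clone it was 0.542, and in all 15812 promoters 0.763. A ratio of 0.6 or more was found in 90.6% of the promoters of clones 1 and 2, 91.8% of those of all 3 clones and 46.8% of those without a peak. The median GC content was 65.3, 65.0 and 58.7% in the same order. A region of the set overlapped the window in 2177 of the 2522 cases (86.3%). Promoters with and without clone 3 thus had close values, while those without any peak were poorer in CpG.

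Motifs were searched on both strands of the same windows. The CCAAT box (CCAAT) was found in 46.9% of the 2522 promoters, 50.7% of those of all 3 clones, 28.7% of those of clone 1 alone, 40.5% of those of clone 2 alone and 36.3% of all promoters. The GC box (GGGCGG) was found in 74.3% of the 2522 and 58.5% of all promoters, the ETS core CCGGAAG in 22.2 and 14.2%, the NRF1 motif in 15.5 and 8.59% (a stricter form of it, which overlaps it, in 3.33 and 1.76%) and the YY1 motif AAGATGGC in 7.14 and 3.91%. The ZNF143 motif was found in 0.952 and 0.367%, the ZBTB33 palindrome in 1.43 and 0.670%, the E-box CACGTG in 11.5 and 8.87%, the cyclic AMP response element TGACGTCA in 4.28 and 2.59%, and the E2F forms TTTCGCGC and TTTGGCGC in 1.39 and 0.816% and in 1.51 and 0.892%. The TATA box (TATAAA) and the AP-1 motif TGANTCA were less frequent, at 4.48 and 3.33% against 9.64 and 5.76% of all promoters. GAGGAAGT, bound by the myeloid ETS factor PU.1, was found in 2.70% of the 2522 and 2.52% of all promoters. The regions of all 3 clones and of clone 1 alone had close values for several motifs, 75.4 and 76.8% for the GC box, 22.7 and 19.9% for the ETS core, 17.0 and 12.6% for the NRF1 motif and 4.99 and 4.96% for the TATA box, so these are not marks of the regions that clone 3 lacked. Motifs rich in CG are more frequent wherever CpG is, so these shares are not independent of the CpG content.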

How the data were processed

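ATAC-seq peak lists of 6 U937 libraries were used, 3 control lines and 3 ΔNSPs clones, grouped and numbered by the sample titles. The peak names in the lists of clones 1, 2 and 3 carry the clone numbers 27, 30 and 82, and no source used here ties these to the titles beyond the deposited file of each sample. Per the submitters' processing notes the tools were FastQC, Bowtie2, Picard and MACS2 and the build GRCh38. The sources used here give no versions or settings, and do not say if read ends were moved to the transposase cut. Peaks were called per library, as the deposited peak names show. The deposited fold is a ratio of the pile-up at the summit to the local background, which fitted the values with 1 added to each, and confidence is deposited as −log10 p and −log10 q. The deposited score was not used. Read totals are unknown. The lowest deposited −log10 p of a list was 4.89, 4.86 and 5.75 in the clones, in order, and between 7.77 and 8.90 in the controls.

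Lines that shared an interval were taken as 1 peak with its highest summit, and summit offsets below 0 in clone 2 were set to 0. Intervals that shared 1 bp or more were merged (Python 3.11.15, pandas 2.3.3), and gene ends came from RefSeq on GRCh38.p14. Strand came from the RefSeq promoter table, for 15812 of 19974 protein-coding and 11383 of 18177 lncRNA genes. Pile-ups and backgrounds were solved from fold and p, which gave whole reads within 0.05 for 100% of the regions solved in each clone. Membership and the solution were tested on simulated lists. No test between groups was made, because the calls of the clones set the members and each clone is 1 library. The 28 gene lists and the members were chosen with earlier results of these data known. Genes named were the 12 regions of smallest rank sum, the 5 of highest lower fold, the 3 of smallest −log10 q, the 3 widest, the 3 strongest at lncRNA ends, those at the limits of the window, those nearest clone 3 peaks, and up to 3 leading genes per list.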

Additional observations from a re-analysis of the deposited data

How the results depend on the processing

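The number of regions depended on the threshold and on list length. With a −log10 q of 5 or more there were 1483 regions at 1714 protein-coding genes, with a fold of 4 or more 478 at 540, and with clone lists of equal length 140 at 161. In the same order, the median fold in clone 1 was 3.48, 4.64 and 3.63, the median fold in clone 2 was 3.98, 4.75 and 4.79, and the share at 5′ ends was 95.8, 92.2 and 96.9%. The median CpG ratio was 0.891 with a fold of 4 or more. Under the other settings it stayed within the interval of the median, which was 0.867 over all genes with such a region at the 5′ end. This interval, 0.860 to 0.874, takes the promoters as independent, which they are not, and measures no spread between clones. With windows of 500 and 2500 bp the share at 5′ ends was 95.8 and 91.7%. Leaving out 1 library, the counts ran from 2936 to 3784 regions and 3126 to 4091 genes, the medians from 3.28 to 3.34 in clone 1 and 3.61 to 3.68 in clone 2, the share at 5′ ends from 94.8 to 95.0% and the CpG ratio from 0.867 to 0.872. Each upper value is that without clone 3, where the condition on clone 3 falls away, and leaving out a control line changed none of these values. The rule cannot be applied without clone 1 or clone 2. Of 78 alternative values 58 stayed within the interval, or for counts within 1.5 times the reported value. Intervals of shares and other medians also took the members as independent. The 58 include the values without a control line, which could hardly move because the control lists held few peaks. No paired analysis was possible because the results come from no test. Read totals are unknown, so how depth limits the clone 3 list was not tested.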

Other observations

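A clone 3 peak lay close to few of the regions without overlapping them. Of 2936 regions, 43 (1.46%) had one within 1000 bp and 163 (5.55%) within 10000 bp, and the median gap was 277 kb. The nearest were at RTEL1, a helicase gene of telomere maintenance (7 bp), MAFG-AS1 (49 bp), PPP1R7 and PASK (58 bp), VDAC2, a channel of the outer mitochondrial membrane (105 bp), and CARD19 (139 bp). With regions kept only where no clone 3 peak lay within 1000 bp, 2893 were left.

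At 45 regions the other end of a protein-coding gene at the region, but not this end, had a clone 3 peak. The strongest lay at the start of PHF1, a Polycomb-associated protein gene, and the 3′ end of KIFC1, a mitotic kinesin gene (chromosome 6, 33410080 to 33410521), with folds of 3.09 and 4.24 in clones 1 and 2. Clone 3 had its peak at the other end of KIFC1 (33391525 to 33391759), with a fold of 2.20. The next lay at the start of EPN1 and the 3′ end of U2AF2, with folds of 4.61 and 4.81, where clone 3 had a peak at the other end of U2AF2 with a fold of 3.96, and at the start of PMF1 and the 3′ end of SLC25A44, with 4.34 and 4.15, where clone 3 had 2.23 at the other end of SLC25A44. Counts of genes with a clone 3 peak at either end therefore include such neighbours, and 99 of the 3126 protein-coding genes (3.17%) had both a region of the set and a clone 3 peak at an end.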
